A study of Mus musculus with 2 samples.

Results

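The 10 genes described here encode transcription factors of the heart, the blood and the lateral mesoderm: the zinc finger factors Gata1, Gata2, Gata3, Gata4, Gata5 and Gata6, the basic helix-loop-helix factors Hand1 and Hand2, the homeodomain factor Nkx2-5 and the LIM homeodomain factor Isl1. They were taken by symbol from the 32285 genes of the feature list, and all 10 were present with UMIs in both libraries. UMI stands for unique molecular identifier, the tag that lets each captured transcript be counted once. The data were droplet single-cell RNA sequencing of dissociated whole mouse embryos at embryonic day 9.5, with 1 wild-type library (Usb1+/+) and 1 Usb1-null library (Usb1-/-). Usb1 encodes a nuclease that trims the end of U6 small nuclear RNA. The null allele is a germline deletion of exons 1 and 2 made with CRISPR, and homozygous embryos come from crosses of heterozygous parents. How many embryos or litters were pooled is not known from the labels or the methods. The question was how the cell types and transcription of the 2 genotypes compare, and here it is asked of these 10 genes.

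GATA factors bind DNA at short sequences built around GATA and act with partners of the FOG family, encoded by Zfpm1 and Zfpm2. Gata1 and Gata2 are known for their roles in red cells, megakaryocytes and blood stem cells, Gata3 for the kidney duct, the inner ear, the skin and T cells, and Gata4, Gata5 and Gata6 for the heart, the lateral mesoderm and the endoderm. In the embryonic heart, Nkx2-5 marks the muscle cells, Hand1 and Hand2 shape the ventricles and the outflow tract, and Isl1 marks the second heart field, besides motor and sensory neurons.

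There was 1 library per genotype, so no difference has a replicate check and none was tested. Intervals are 95% intervals for counting error only, exact Poisson for counts, Clopper-Pearson for shares and conditional binomial for ratios. The wild-type library kept 15161 cells and 21732106 UMIs, with a median of 1243 UMIs per cell, and the Usb1-null library 13018 cells and 33383886 UMIs, with a median of 2299.5. The median share of mitochondrial UMIs per cell was 0.309% and 0.104%. They shared 61 cell barcodes. Usb1 had 68 and 47 UMIs, a ratio of 0.450 (0.304 to 0.662), but the assay reads mainly the 3′ end of transcripts, away from the deleted exons, and where in the gene these reads lie was not examined, so this checks no label. Xist had 53276 UMIs in the wild-type and 26 in the Usb1-null library, whereas 4 Y-linked genes had 14 and 23463 UMIs together, so the sex of the embryos and the genotype cannot be told apart. Gata1 lies on the X chromosome. The labels name nuclear RNA, whereas the protocol describes whole cells. Levels are in CPM (counts of the gene per 1000000 UMIs of the library, or of the cluster in that library). A gene was called higher or lower when its Usb1-null over wild-type ratio, with 1 CPM added to both values, passed 1.5-fold with at least 50 UMIs over both libraries.

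The short sequences below show where GATA motifs stand in front of the genes that the results turn on. The motif AGATAA was searched on both strands in the 250 bases before each start in the RefSeq promoter table of GRCm38.p6. The search was repeated in the same way for AGATAG, then for the form TGATAA and lastly for the form TGATAG, which differ in the first or the last letter. Promoters of 7 of the 10 factors were searched, without Gata4, Hand1 and Gata6, and 2 of these 7 held a motif, Hand2 and Isl1. No match of these letters was present in that window for Gata1, Gata2, Gata3, Gata5 and Nkx2-5. Of all 32851 promoters, 26.5% held at least 1 motif, and by gene 29.75% did. Among the erythroid genes listed as partners and targets of Gata1 and Gata2, 15 of 24 with a promoter held a motif (62.5%), and among the cardiac genes listed for Gata4, Hand2 and Nkx2-5, 13 of 28 did (46.4%). The other lists were nearer to the share of all genes or below it, with 6 of 17 endoderm genes (35.3%), 5 of 15 endothelial genes (33.3%), 3 of 11 second heart field genes (27.3%), 3 of 17 lateral mesoderm genes (17.6%) and 2 of 21 neuronal genes (9.52%). The lists were written from genes known for these factors, so these shares are descriptions of the lists. Capitals mark the motif as it reads on the strand of the gene, 5′ to 3′.
Hand2, chr8:57320751-57320790, plus strand: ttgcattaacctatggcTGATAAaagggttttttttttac
Hand2, chr8:57320794-57320833, plus strand: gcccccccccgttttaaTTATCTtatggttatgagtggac
Isl1, chr13:116309781-116309820, minus strand: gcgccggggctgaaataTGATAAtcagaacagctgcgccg
Hba-x, chr11:32276475-32276514, plus strand: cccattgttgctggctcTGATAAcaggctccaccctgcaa
Pfkfb4, chr9:108991742-108991781, plus strand: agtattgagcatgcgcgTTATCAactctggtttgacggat
Klf1, chr8:84901885-84901924, plus strand: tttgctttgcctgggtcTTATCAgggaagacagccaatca
Alas2, chrX:150547314-150547353, plus strand: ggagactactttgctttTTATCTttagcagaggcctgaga
Gfi1b, chr2:28622080-28622119, minus strand: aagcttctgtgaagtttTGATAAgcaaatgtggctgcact
Myh6, chr14:54966820-54966857, minus strand: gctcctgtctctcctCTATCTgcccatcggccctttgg
Hba-x, Pfkfb4 and Myh6 are among the genes whose pattern over clusters was most like that of a factor, and they are shown because they hold a motif. Most such genes searched held none, Tnni3, Tbx20 and Smad6 among them. The erythroid genes Klf1, Alas2 and Gfi1b, which also hold one, were added after their values were seen. The motif in Hand2 began 215 and 172 bases before the start, that in Isl1 115 bases before it.

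The cells fell into 29 clusters, built without the 10 factors, and 24 of them, those with 50 or more cells in both libraries, were compared. Of these, 20 could be named from marker genes with the suffix "-like". Over the 24 clusters the factors fell into separate patterns. With both libraries pooled, primitive erythroid-like cells held 72.0% of the Gata1 UMIs, and 10 of 10 of their markers were raised. Cardiomyocyte-like cells, with 14 of 14 markers raised, held 69.5% of the Nkx2-5 UMIs, pooled in the same way. Gata4, Gata5, Gata6, Hand1 and Hand2 shared the heart and the lateral mesoderm, Gata3 was highest in intermediate mesoderm-like and ear-like cells, Gata2 in endothelial-like and neuron-like cells, and Isl1 in neuron-like cells.

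**Figure D1:**
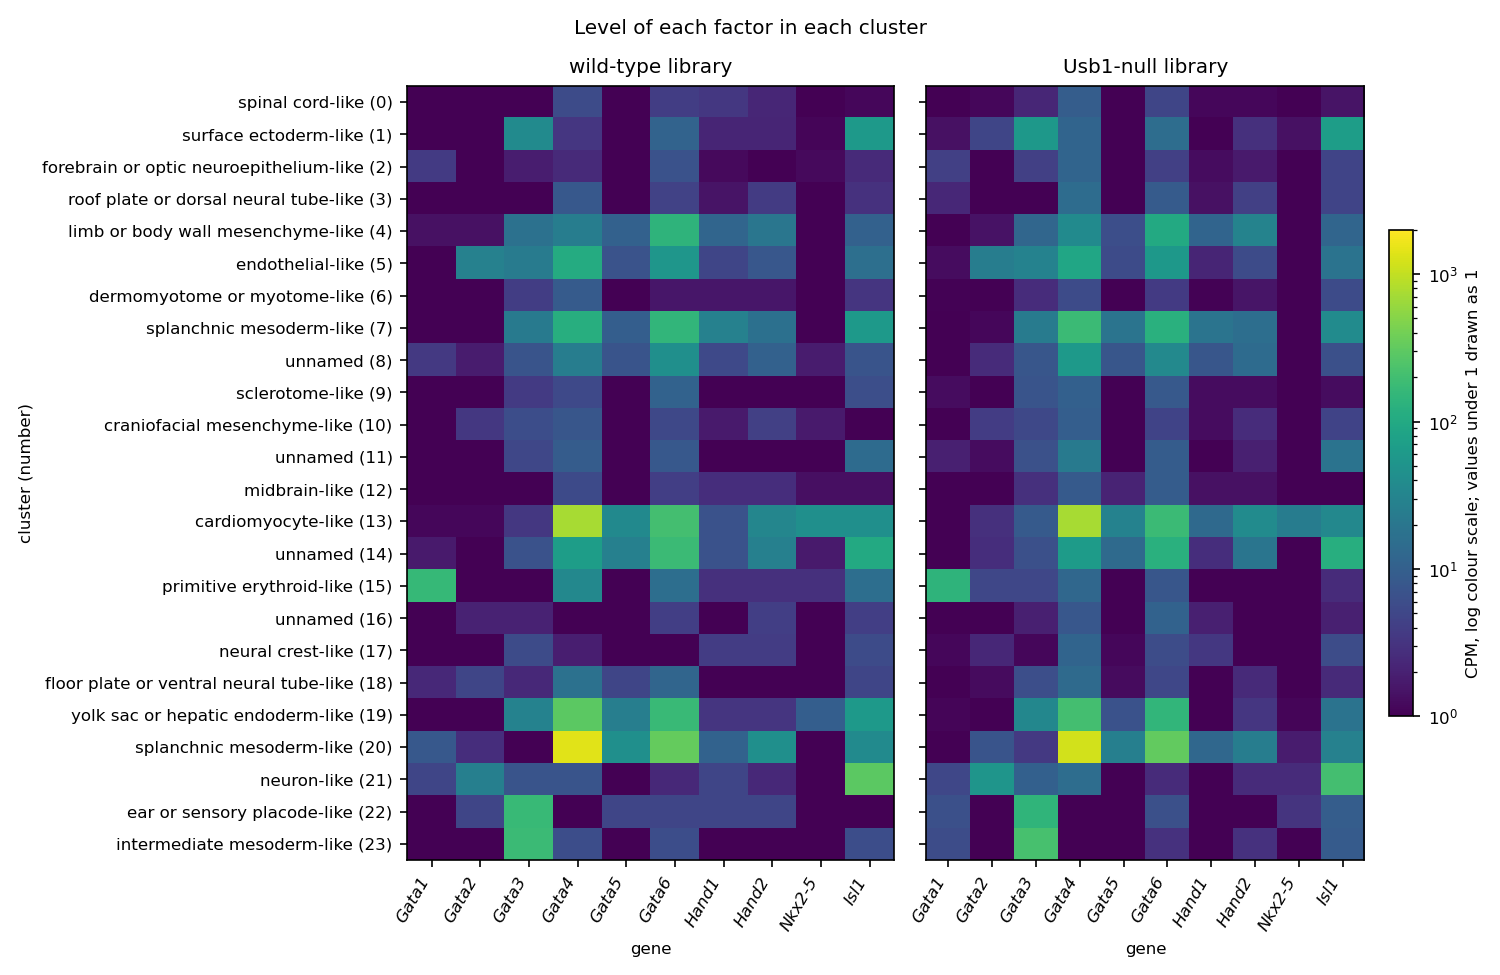
Level of each factor (columns) in each of the 24 compared clusters (rows, cluster number in brackets) in the wild-type library (left) and the Usb1-null library (right), as CPM on a logarithmic colour scale, with values under 1 CPM drawn as 1. The brightest cells are Gata4 in the splanchnic mesoderm-like cluster 20, with 1431 and 1188 CPM, and in cardiomyocyte-like cells, with 744 and 733 CPM.

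The likeness of 2 factors was described by Pearson's r of log2(CPM + 1) over the 24 clusters, which share 2 libraries and are not independent. Gata5 and Gata6 were most alike (r = 0.945), followed by Gata4 with Gata6 (0.882), Hand2 with Gata5 (0.865) and Hand1 with Hand2 (0.862). Nkx2-5 was less like them, with 0.522 for Gata4 and 0.420 for Hand2. Gata1 stood apart, its highest value with another factor being 0.186, for Gata2.

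Summed over all cells, Gata1 was the only one of the 10 factors past the call. The wild-type library held 135 of its UMIs (6.21 CPM, 5.21 to 7.35) and the Usb1-null library 101 (3.03 CPM, 2.46 to 3.68). Its ratio was 0.487 (0.372 to 0.635), a log2 ratio of -0.84 with 1 CPM added. The direction turned with at least 1000 genes per cell, where the log2 ratio was 0.12, and with thinned cells it was -0.52, short of the call. Among all 16752 genes counted, 9.66% passed the same call in either direction, so 1 of 10 factors is near that share. The whole-library sum mixes levels within cells with the numbers of cells of each kind.

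**Figure D2:**
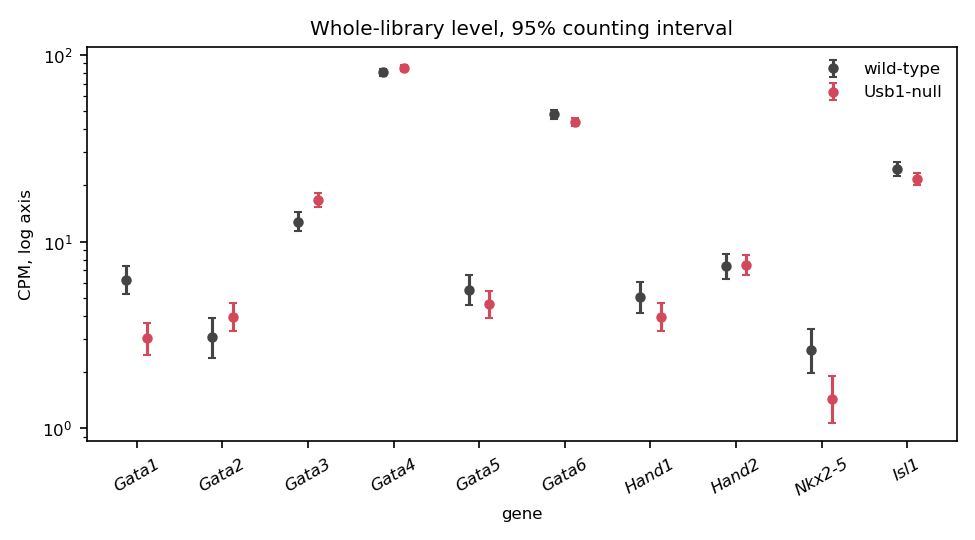
Whole-library level of each factor in CPM (logarithmic axis) in wild-type (grey) and Usb1-null cells (red), with bars for the 95% counting interval. The intervals of Gata1 do not overlap (6.21 and 3.03 CPM). Those of Nkx2-5 (2.62 and 1.44 CPM) and, in the other direction, Gata3 (12.8 and 16.7 CPM) are separated narrowly.

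Of the other 9, Nkx2-5 came closest to the call, with 57 UMIs (2.62 CPM, 1.99 to 3.40) and 48 UMIs (1.44 CPM, 1.06 to 1.91), a ratio of 0.548 (0.366 to 0.819). Gata3 had 278 and 557 UMIs, which is 12.8 and 16.7 CPM, with a ratio of 1.30 (1.13 to 1.51). Gata6 had 1042 and 1459 UMIs, or 48.0 and 43.7 CPM, with a ratio of 0.912 (0.841 to 0.988). These intervals exclude 1 but lie within or across 1.5-fold. Isl1 had 24.5 and 21.7 CPM with a ratio of 0.887 (0.792 to 0.994). The intervals of the remaining 5 included 1: 1.28 (0.949 to 1.75) for Gata2, 1.06 (0.996 to 1.12) for Gata4, 0.835 (0.654 to 1.07) for Gata5, 0.788 (0.607 to 1.03) for Hand1 and 1.02 (0.834 to 1.25) for Hand2.

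Gata1, the factor that drives red cell differentiation, was measured mostly in primitive erythroid-like cells, and these were fewer in the Usb1-null library. The wild-type library held 597 of them (3.94%, 3.63 to 4.26) and the Usb1-null library 189 (1.45%, 1.25 to 1.67). Within them lay 114 of the 135 wild-type and 56 of the 101 Usb1-null Gata1 UMIs. These are 163 CPM (134 to 196) and 141 CPM (107 to 183). The 2 intervals overlap, and the ratio was 0.866 (0.617 to 1.20). With the cluster shares of the wild-type library applied to both, the whole-library ratio of Gata1 was 0.963.

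Among wild-type erythroid-like cells 97 held a Gata1 UMI (16.2%, 13.4 to 19.5), and among the Usb1-null ones 44 did (23.3%, 17.4 to 29.96). Their median depths were 838 and 1723 UMIs. Thinning to 800 UMIs leaves out shallower cells, so it kept 329 of the 597 wild-type and 180 of the 189 Usb1-null cells. In those the shares were 11.8% and 10.6%, which compares differently selected cells. Sclerotome-like cells, which should lack these factors, had a Gata1 UMI in 0 of 739 cells of the wild-type library, for which 3 counts set an upper limit of 0.406%. In the Usb1-null library 2 of 611 did (0.327%). The median depths of these cells were 1321 and 2320 UMIs, and the upper limits for a thinned share of 0 among them are 0.473% and 0.493%. The next cluster in order, neuron-like, had 2 Gata1 UMIs in each library, or 4.86 and 5.07 CPM, and the erythroid-like level was 33.6 and 27.8 times as high. Forebrain-like cells held 6 and 10 Gata1 UMIs (3.66 and 4.27 CPM).

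The Gata1 values depended on which erythroid-like cells were kept. Cells with at least 1000 detected genes numbered 146 of the wild-type and 138 of the Usb1-null erythroid-like cells, and in them Gata1 had 65.5 and 132 CPM, a ratio of 2.02 (1.20 to 3.49). Doublets were called in 23.1% of the wild-type and 11.1% of the Usb1-null erythroid-like cells, and without them Gata1 had 253 and 145 CPM, a ratio of 0.572 (0.396 to 0.817). The 2 selections move Gata1 in opposite directions, and neither direction in erythroid-like cells can be called from these libraries.

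**Figure D3:**
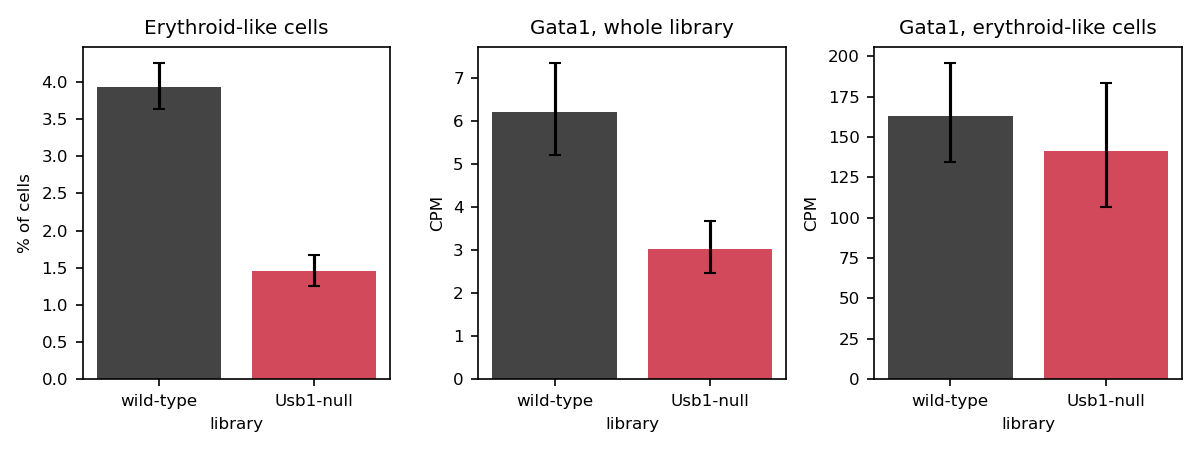
Share of primitive erythroid-like cells in % of all cells (left), Gata1 in CPM over the whole library (middle) and Gata1 in CPM within erythroid-like cells (right) for the wild-type (grey) and Usb1-null library (red), with 95% counting intervals. The first 2 differ beyond their intervals (3.94 against 1.45% and 6.21 against 3.03 CPM), while within the cells 163 and 141 CPM overlap.

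Among the genes closest to Gata1 over the 24 clusters, of 15000 genes, were the glycolytic regulator Pfkfb4 (0.903) and the embryonic alpha-like globin Hba-x (0.880). Of the 31 erythroid and megakaryocyte genes counted over the whole library, 16 fell and 1 rose, while 9.66% of all genes passed the call. The median log2 ratio was -0.65, against 0.00 over all genes. The gene with the largest difference was Hbb-y, an embryonic beta-like globin, with 449.8 and 75.8 CPM. The genes with the most UMIs were Mecom, with 448 and 383 CPM, and Hbb-y. With wild-type cluster shares, the whole-library ratio went from 0.169 to 0.366 for Hbb-y and from 0.458 to 1.00 for the list gene Ank1. Within erythroid-like cells, 23 genes of the list were counted, of which 3 rose (Lmo2, Runx1 and Itga2b) and 4 fell (Hbb-y, Urod, Ermap and Mecom), with a median of -0.12. There 18.8% of all genes passed the call. Hbb-y had 8823 CPM and 4341 CPM in these cells, a ratio of 0.492 (0.466 to 0.519), and Hba-x 4351 and 3116 CPM, a ratio of 0.716 (0.670 to 0.765). The genes whose promoters are shown above had 40.1 and 40.3 CPM (Klf1, an erythroid activator), 258 and 270 CPM (Alas2, the first enzyme of heme synthesis in red cells) and 51.5 and 32.8 CPM (Gfi1b, a repressor). With at least 1000 genes per cell, 9 genes of the list rose and 2 fell in erythroid-like cells, while 30.2% of all genes passed the call. Without doublets, 1 gene rose and 6 fell, with a median of -0.38 and 19.7% of all genes past the call.

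Gata2, which is needed for blood stem cells and is also active in endothelium and interneurons, was sparse. Endothelial-like cells held 48.7% of its UMIs, 40 in wild-type (28.2 CPM, 20.2 to 38.5) and 57 in Usb1-null cells (24.8 CPM, 18.8 to 32.1). The ratio was 0.877 (0.575 to 1.35). Neuron-like cells had 11 UMIs (26.7 CPM, 13.3 to 47.8) and 21 UMIs (53.2 CPM, 32.9 to 81.4), under the minimum for a call. The 2 clusters could not be ordered in both libraries, since the neuron-like over endothelial-like ratio was 0.946 (0.438 to 1.88) in wild-type and 2.15 (1.24 to 3.6) in Usb1-null cells. In endothelial-like cells 12.7% of all genes passed the call, and in neuron-like cells 17% did. A Gata2 UMI was seen in 4.39% and 6.86% of endothelial-like cells, against 0.135% and 0.164% of sclerotome-like cells, and the thinned endothelial-like shares were 2.24% and 1.79%. Of the 20 endothelial genes counted in endothelial-like cells, 1 fell, Runx1, a factor of emerging blood cells, with 58.6 and 36.1 CPM and a ratio of 0.616 (0.449 to 0.845). Fli1, with the most UMIs after Mecom in this list, had 1324 and 1200 CPM there. By likeness, Gata2 was followed by Zc3h7a (r = 0.788), Atp6v0a2 (0.787) and Bicd2 (0.782).

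Gata3 was highest in 2 small clusters. In intermediate mesoderm-like cells, which form the kidney duct and were led by Pax2, Lhx1 and Pax8, it had 30 UMIs in wild-type (178 CPM, 120 to 254) and 74 in Usb1-null cells (217 CPM, 170 to 272). In ear or sensory placode-like cells it had 34 UMIs (166 CPM, 115 to 233) and 45 UMIs (143 CPM, 104 to 191). The 2 clusters did not differ beyond counting error in the wild-type library, with a ratio of 1.07 (0.632 to 1.80), and in the Usb1-null library the ratio was 1.52 (1.04 to 2.25). The ear-like level was 4.40 and 2.46 times that of surface ectoderm-like cells, which came next.

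Between genotypes, Gata3 passed the call in surface ectoderm-like cells, where it had 68 UMIs (37.9 CPM, 29.4 to 48.0) in wild-type and 164 UMIs (58.0 CPM, 49.5 to 67.6) in Usb1-null cells. This is a ratio of 1.53 (1.15 to 2.06), just past the call. Over all genes and clusters 13.5% of pairs passed it. The thinned shares of these cells with a Gata3 UMI were 3.40% and 4.13%, against 0.316% and 0.821% of sclerotome-like cells. Its ratio was 1.22 (0.786 to 1.93) in intermediate mesoderm-like cells, where 16.4% of all genes passed the call, and 0.858 (0.537 to 1.38) in ear-like cells. Likest to Gata3 were Fblim1 (r = 0.827), Tgfa (0.816) and Plekhg5 (0.790). Gata3 overlaps 3 other genes on chromosome 2, Gm13256, 4930412O13Rik and 9230102O04Rik, which had 6 and 26, 20 and 22, and 1 and 2 UMIs in the wild-type and Usb1-null libraries.

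Gata4, a regulator of heart muscle and of the lining of the body cavity, was highest in a splanchnic mesoderm-like cluster (number 20) whose leading genes included Wt1, Tbx18, Wnt2 and Sfrp5. There it had 523 UMIs in wild-type (1431 CPM, 1311 to 1560) and 664 in Usb1-null cells (1188 CPM, 1100 to 1282). Cardiomyocyte-like cells followed with 650 UMIs (744 CPM, 688 to 804) and 1022 UMIs (733 CPM, 688 to 779). The order of these 2 was the same in both libraries, with cluster 20 over cardiomyocyte-like at 1.92 (1.71 to 2.16) and 1.62 (1.47 to 1.79). Yolk sac or hepatic endoderm-like cells came next, with 294 and 207 CPM, and then the splanchnic mesoderm-like cluster 7, led by Foxf1, Fendrr and Postn, with 117 and 179 CPM. In the Usb1-null library these 2 did not differ beyond counting error (1.16, 0.963 to 1.40).

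Within clusters the Gata4 ratio went both ways. In cardiomyocyte-like cells it was 0.985 (0.892 to 1.09), and in endothelial-like cells 0.848 (0.684 to 1.05). In cluster 20 it was 0.830 (0.739 to 0.933), and 14.7% of all genes passed the call there. In endoderm-like cells it was 0.705 (0.546 to 0.916). Gata4 was higher in the Foxf1-led cluster 7, where it passed the call with 134 UMIs (117 CPM, 98.2 to 139) and 313 UMIs (179 CPM, 159 to 200), a ratio of 1.52 (1.24 to 1.88). In this cluster 13.3% of all genes passed the call, and Wt1, a leading gene of cluster 20, had 59.5 and 38.2 CPM. Gata4 also passed the call in the unnamed cluster 8, of low depth (medians of 719.5 and 1132 UMIs). There it had 14 and 47 UMIs and a ratio of 2.43 (1.31 to 4.77), while over all genes and clusters 13.5% of pairs passed. In limb or body wall mesenchyme-like cells, with 36 and 80 UMIs, the ratio of 1.52 (1.01 to 2.32) fell just short of the call with 1 CPM added. These differences were not tested, and cell mixture within a cluster cannot be told apart from the level per cell.

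**Figure D4:**
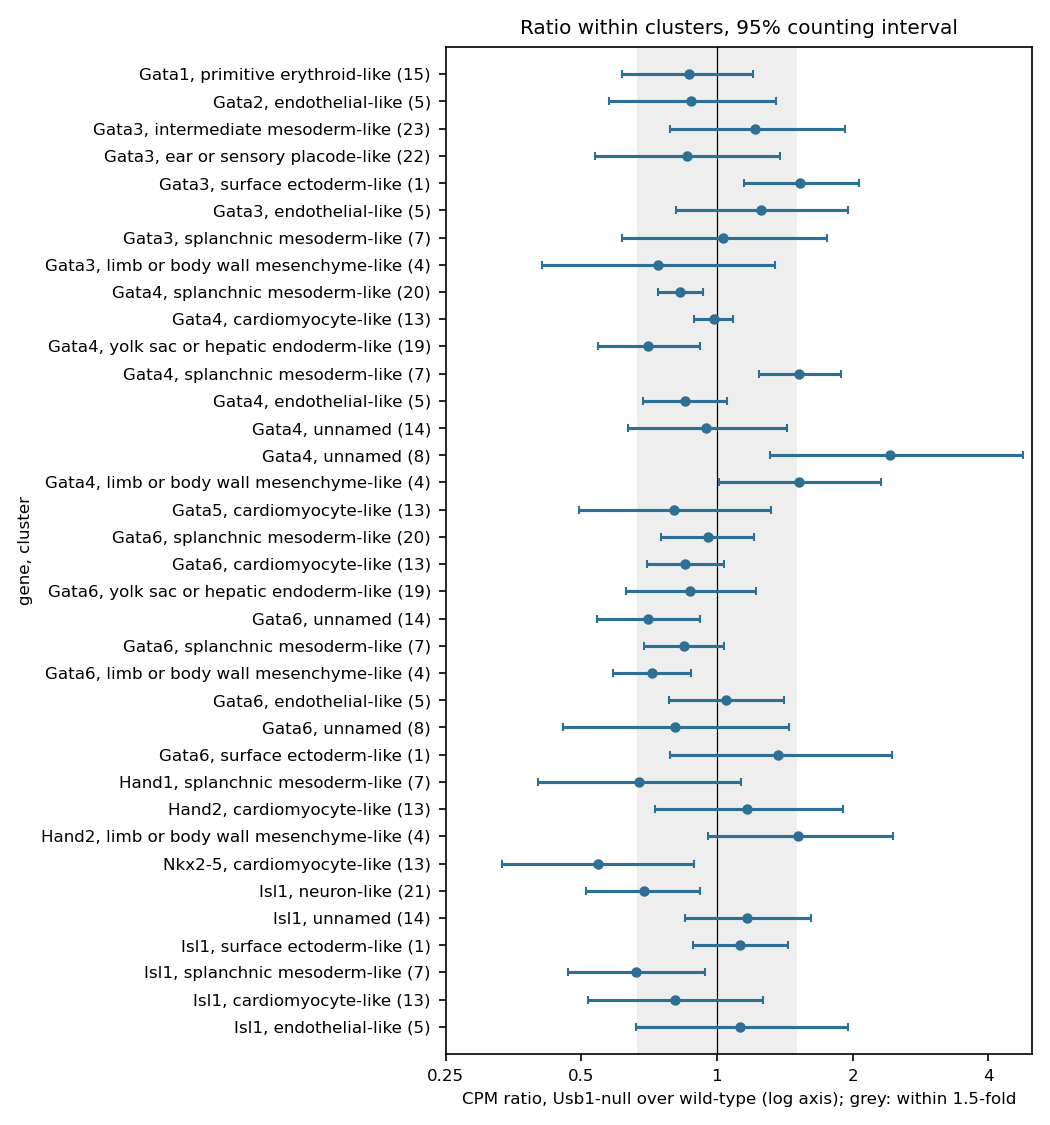
Ratio of CPM, Usb1-null over wild-type (logarithmic axis), for the 36 pairs of factor and cluster with at least 50 UMIs, with 95% counting intervals and the band within 1.5-fold in grey. Ratios run from 0.546 for Nkx2-5 in cardiomyocyte-like cells to 2.43 for Gata4 in cluster 8.

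Of the cells of cluster 20, 187 from the wild-type library (71.6%, 65.8 to 77.0) held a Gata4 UMI, as did 185 from the Usb1-null library (83.3%, 77.8 to 88.0), at median depths of 1239 and 2178 UMIs, and in 62.5% and 80.0% of cardiomyocyte-like cells, at 1504 and 2676 UMIs. Thinned, these were 59.1% and 54.1%, and 41.1% and 39.8%. The shares in sclerotome-like cells were 0.812% and 2.13%, and thinned 0.316% and 0.821%. Gata4 stayed near 5.38 and 10.3 CPM in sclerotome-like cells and 5.64 and 9.39 CPM in spinal cord-like cells, and UMIs there are read as background.

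Over the 36 pairs of factor and cluster counted, 4 passed the call: Gata3 in surface ectoderm-like cells and Gata4 in clusters 7 and 8 were higher, and Nkx2-5 in cardiomyocyte-like cells was lower. Over all genes and clusters 13.5% of pairs passed it, so the factors' 4 of 36 are near that share. The counting interval excluded 1 in 11 of the 36 pairs, 4 above and 7 below. The share of all gene and cluster pairs whose interval does so is not given here, so this count is not read as a result about the factors. In their leading clusters 8 factors were counted and 1 passed, Nkx2-5. In these clusters 13.3% to 18.8% of all genes passed the call, so 1 of 8 is near that share.

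Gata6, the partner of Gata4 in heart and endoderm, was the most widely spread factor. The largest share of its UMIs in any cluster was 17.1%, in cardiomyocyte-like cells. It was highest in cluster 20, with 334 CPM (277 to 399) and 319 CPM (273 to 369), then in cardiomyocyte-like cells, with 207 and 176 CPM, and in endoderm-like cells, with 171 and 149 CPM. Cluster 14, which stayed unnamed and was led by Tnc, Tlx1, Gfra1 and Tbx1, had 178 and 125 CPM. Only the step from cluster 20 to cardiomyocyte-like cells exceeded counting error in both libraries (1.61, 1.27 to 2.04, and 1.81, 1.48 to 2.20).

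Gata6 had 201 UMIs (141 CPM) and 211 UMIs (101 CPM) in limb or body wall mesenchyme-like cells, a ratio of 0.717 (0.588 to 0.874), and its ratio in cluster 14 was 0.703 (0.541 to 0.917). Both intervals lie below 1, and neither value passed the call. In cluster 20 the ratio was 0.954 (0.753 to 1.21). Thinned shares of cells with a Gata6 UMI in cluster 20 were 25% and 21.4%, against 0.946% and 0.493% of sclerotome-like cells. The gene most like Gata6, Gata5 and Gata4 alike was 1010001N08Rik, a noncoding gene that overlaps the start of Gata6 on the other strand (r = 0.960, 0.919 and 0.860), with 770 and 1033 UMIs. The 2 genes overlap only around the start of Gata6. No source used here states the strand setting, so it is not known whether reads within the shared stretch were assigned by strand. The next genes were Prdm6 (0.886) and Smad6 (0.860), an inhibitor of BMP signalling, for Gata6, and Tbx20 (0.851), a cardiac T-box factor, and Parp4 (0.836) for Gata4.

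Gata5, known from the endocardium and the heart fields, had few UMIs. Its highest level was in cluster 20, with 16 UMIs (43.8 CPM, 25.03 to 71.1) and 15 UMIs (26.8 CPM, 15.02 to 44.3). Cardiomyocyte-like cells had 32 UMIs (36.6 CPM) and 41 UMIs (29.4 CPM), with a ratio of 0.803 (0.493 to 1.32). The 2 clusters did not differ beyond counting error in either library (1.20, 0.613 to 2.24, and 0.913, 0.470 to 1.69). Endoderm-like cells had 8 UMIs (25.9 CPM, 11.2 to 51.0) and 6 UMIs (6.73 CPM, 2.47 to 14.7), below the minimum for a call. Next to Gata5 after 1010001N08Rik were Hand2os1 (r = 0.860) and Gucy1a1 (0.844). The antisense gene Gata5os had 9 and 21 UMIs.

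Endoderm-like cells (216 wild-type and 327 Usb1-null) had 12 of 12 markers raised with both libraries pooled. In them most counted partners and targets of Gata4 and Gata6 were higher in the Usb1-null library. Of the 16 endoderm genes counted, 10 rose and none fell, with a median log2 ratio of 1.35, and 16.9% of all genes passed the call. Among those that rose were Cubn, Apob, Fgb, Apoe, Apoa1, Afp, Ttr, Dab2 and Prox1, most of them genes of yolk sac and liver. Of these, Cubn, Apob, Fgb, Apoa1, Afp and Ttr are also among the markers that gave the cluster its name. Cubn, a receptor for nutrient uptake in the yolk sac, had 19.4 and 363 CPM, a ratio of 18.7 (8.51 to 51.4), and Afp, alpha-fetoprotein, 93.8 and 397 CPM. Gata4 itself had 294 and 207 CPM in the same cells, Gata6 171 CPM (128 to 224) and 149 CPM (125 to 177), and Isl1 61.5 CPM (37.0 to 96.0) and 18.0 CPM (10.3 to 29.1). Foxa2, with 61.5 and 43.7 CPM, and Foxa1, with 84.1 and 86.4 CPM, did not pass the call. Over the whole library 9 of 22 endoderm genes rose and 2 fell (Sox2 and Apoe), while 9.66% of all genes passed the call. The genes of the list with the most UMIs, Col4a1 and Lama1, had 189.9 and 171 CPM and 151 and 141 CPM over the whole library. The next marker list, of gut or pharyngeal endoderm, had 8 markers raised in this cluster. Its mixture of endoderm was not resolved further, in either library.

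Hand1, a factor of the left ventricle, the body wall and the extraembryonic mesoderm, was highest among the compared clusters in the Foxf1-led cluster 7, with 32 UMIs (28.0 CPM, 19.2 to 39.5) and 33 UMIs (18.8 CPM, 12.97 to 26.5), a ratio of 0.673 (0.401 to 1.13). Limb or body wall mesenchyme-like cells had 11.9 and 11.5 CPM, cluster 20 had 11.0 and 12.5 CPM, and cardiomyocyte-like cells had 6 UMIs (6.87 CPM, 2.52 to 14.95) and 19 UMIs (13.6 CPM, 8.20 to 21.3). A surface ectoderm-like cluster too small to compare, with 48 and 32 cells, had 6 and 10 Hand1 UMIs (90.0 and 122 CPM). None of the neighbours in order differed beyond counting error in both libraries. Thinned shares of cluster 7 cells with a Hand1 UMI were 1.68% and 1.34%, and 0% and 0.164% of sclerotome-like cells. Likest to Hand1 were Pmp22 (r = 0.841), the WNT target Ccn4 (0.821) and Prdm6 (0.801).

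Hand2, a factor of the right ventricle and the limb bud, was highest in cardiomyocyte-like cells, with 29 UMIs (33.2 CPM, 22.2 to 47.7) and 54 UMIs (38.7 CPM, 29.1 to 50.5), a ratio of 1.17 (0.730 to 1.90). In cluster 20 it had 43.8 and 25.1 CPM, and in limb or body wall mesenchyme-like cells 28 UMIs (19.7 CPM) and 62 UMIs (29.7 CPM), a ratio of 1.51 (0.953 to 2.45). The cardiomyocyte-like over cluster 20 ratio was 0.758 (0.398 to 1.49) and 1.55 (0.847 to 3.013), so their order is not settled. Hand2os1, which overlaps Hand2 on the other strand and had 686 and 1099 UMIs, was its nearest gene (r = 0.934), followed by 5033428I22Rik (0.930) and Gm34030 (0.927). Hand2os1 had 31.6 and 32.9 CPM over the whole library, with a ratio of 1.04 (0.947 to 1.15), against 1.02 for Hand2. Hand2os1 spans most of Hand2, and the strand setting is not stated. It is therefore not known whether reads within the shared stretch were assigned by strand. If they were not, both the likeness and the ratios are limited.

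Among the lateral and limb mesoderm genes listed near Hand1, Hand2 and Gata6, 1 of 26 passed the call over the whole library, against 9.66% of all genes. It was Acta2, smooth muscle actin, with 65.0 and 33.5 CPM. In cluster 7, where 13.3% of all genes passed the call, 16 were counted. Of these 1 rose (Gli1, a target of hedgehog signalling, with 49.9 and 77.1 CPM). In the same cluster 3 fell, among them Acta2 (95.4 and 34.2 CPM) and Wt1. The genes of the list with the most UMIs, Ptch1 and Pdgfra, had 1099 and 1544 CPM and 289 and 334 CPM there.

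Nkx2-5 was measured mostly in cardiomyocyte-like cells (491 wild-type and 436 Usb1-null), and it was lower in the Usb1-null library. It had 39 UMIs in wild-type (44.7 CPM, 31.8 to 61.0) and 34 in Usb1-null cells (24.4 CPM, 16.9 to 34.1). The 2 intervals overlap slightly, and the ratio was 0.546 (0.334 to 0.888), past the call. In this cluster 14.1% of all genes passed it. Nkx2-5 rested on 73 UMIs in all, and the interval reaches 0.888. A UMI was seen in 35 wild-type (7.13%, 5.01 to 9.78) and 31 Usb1-null cells (7.11%, 4.88 to 9.94), and thinned in 3.88% and 2.08%, against 0.158% and 0% of sclerotome-like cells. Without called doublets, which were 17.3% and 15.4% of these cells, the ratio was 0.616 (0.346 to 1.10), and with at least 1000 genes per cell 0.485 (0.288 to 0.818). The next cluster, endoderm-like, had 3 UMIs and 1 UMI, or 9.71 and 1.12 CPM.

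Of the heart muscle genes listed as partners and targets of Gata4, Hand2 and Nkx2-5, 30 were counted in cardiomyocyte-like cells. Of these 12 fell and 2 rose, with a median log2 ratio of -0.32 against 0.03 over all genes in these cells. The libraries also differ in median mitochondrial share (0.309% and 0.104%) and in depth, and the study describes the Usb1-null embryos as smaller. The part of each of these was not tested. Those that fell were the natriuretic peptides Nppa and Nppb and the myosin genes Myh7, Myl2, Myl3, Myl4 and Myl7. The thin filament genes Actc1, Tnnt2 and Tnni1 also fell, as did Csrp3 and the calcium handling gene Pln. Tnnc1, another thin filament gene, went the other way, with 744 and 1098 CPM. Its ratio was 1.48 (1.35 to 1.62), short of the call. Nppa showed the largest difference, with 656 and 157 CPM, a ratio of 0.239 (0.204 to 0.280), and Myh7 had 1416 and 531 CPM, a ratio of 0.375 (0.342 to 0.411). Those that rose were Tbx3, a factor of the conduction system (41.2 and 67.4 CPM), and Irx4, a ventricular factor (35.5 and 58.1 CPM).

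Several transcription factors and calcium handling genes of the list did not pass the call in the same cells. Myocd, a coactivator of muscle genes, had 1529 and 1277 CPM, Mef2c 962 and 1051 CPM, Tbx5 181 and 263 CPM, Tbx20 748 and 1040 CPM and Zfpm2, the FOG partner of Gata4, 971 and 1294 CPM. Slc8a1, the sodium-calcium exchanger and the gene of the list with the most UMIs, had 19140 and 14910 CPM, and Ryr2, the calcium release channel, 4871 and 4500 CPM. All 7 had values within 1.5-fold. Over the clusters, Nkx2-5 was most like Tnni3 (r = 0.874), Myh6 (0.855) and Fsd2 (0.854), and Myh6, whose promoter window is shown above, had 3271 and 2758 CPM in cardiomyocyte-like cells. Over the whole library 11 of 34 cardiac genes fell and none rose, while 9.66% of all genes passed the call. With cells thinned to 800 UMIs, 23 genes of the list could be counted in cardiomyocyte-like cells. Of these 1 rose and 7 fell, while 16.2% of all genes passed the call.

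**Figure D5:**
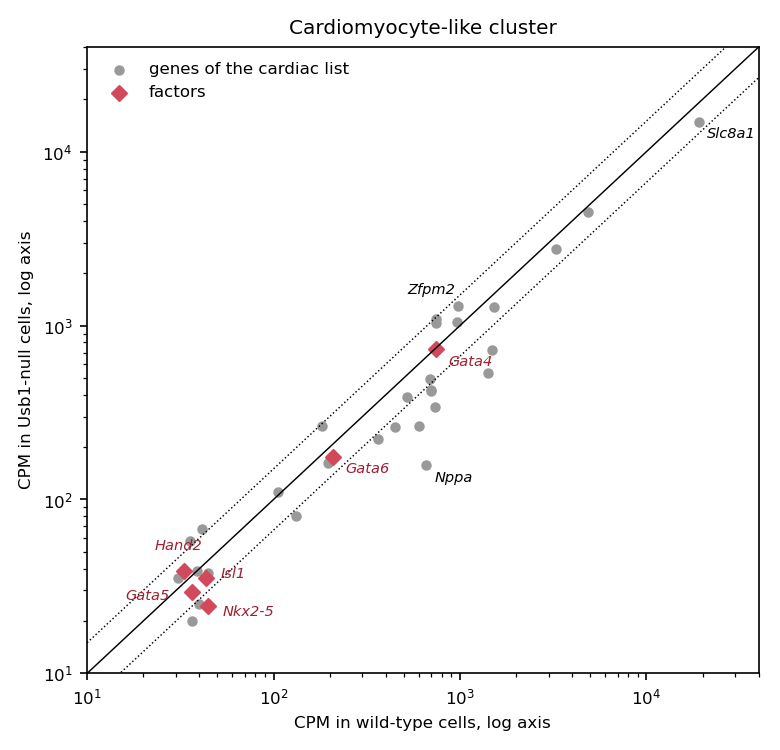
CPM in wild-type (horizontal) and Usb1-null (vertical) cardiomyocyte-like cells, both axes logarithmic, for the factors with at least 50 UMIs there (red diamonds) and the counted genes of the cardiac list (grey). The solid line marks equal levels and the dotted lines a 1.5-fold difference. Gata4 (744 and 733 CPM) lies on the line, Nkx2-5 (44.7 and 24.4 CPM) and Nppa (656 and 157 CPM) lie below the lower dotted line.

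Factors were also counted together in single cells, as shares of cells with a UMI, without a test and with the caution that deeper cells show more genes at once. At least 1 of the 10 factors was seen in 74.1% of wild-type and 88.3% of Usb1-null cardiomyocyte-like cells (thinned 55.7% and 53.7%), against 3.11% and 7.04% of sclerotome-like cells (thinned 2.21% and 2.63%). Of the cardiomyocyte-like cells with Nkx2-5, 32 of 35 wild-type cells (91.4%) and 26 of 31 Usb1-null cells (83.9%) also held Gata4. The share of all cardiomyocyte-like cells with Gata4 was 62.5% and 80.0%. Cells with Isl1 in the same cluster held Gata4 in 11 of 30 (36.7%) and 21 of 31 (67.7%), and held Gata6 in 16 of 30 (53.3%) and 17 of 31 (54.8%), whereas all cells of the cluster held Gata6 in 26.5% and 38.1%. In cluster 14, Isl1 and Gata4 shared 2 wild-type and 4 Usb1-null cells, so Gata4 was seen in 4.35% and 3.96% of its Isl1 cells against 7.79% and 8.91% of all its cells.

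Isl1, which helps to specify motor and sensory neurons, had its highest level in neuron-like cells, whose neuron types were not resolved. These numbered 307 and 155, and Isl1 had 123 UMIs in wild-type (299 CPM, 248 to 356) and 81 in Usb1-null cells (205 CPM, 163 to 255). Its ratio was 0.688 (0.513 to 0.917), short of the call with 1 CPM added. Cluster 14 came next, with 59 UMIs (101 CPM, 76.7 to 130) and 129 UMIs (118 CPM, 98.2 to 140), a ratio of 1.17 (0.852 to 1.62). Surface ectoderm-like cells had 110 UMIs (61.2 CPM) and 195 UMIs (69.0 CPM). The steps between these 3 exceeded counting error in both libraries: neuron-like over cluster 14 was 2.96 (2.16 to 4.12) and 1.75 (1.31 to 2.32), and cluster 14 over surface ectoderm-like was 1.64 (1.18 to 2.28) and 1.71 (1.36 to 2.14).

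In the Foxf1-led cluster 7, Isl1 had 68 UMIs (59.5 CPM, 46.2 to 75.4) and 69 UMIs (39.4 CPM, 30.6 to 49.9), a ratio of 0.662 (0.467 to 0.940), and in cardiomyocyte-like cells 43.5 and 35.1 CPM, a ratio of 0.808 (0.518 to 1.27). An Isl1 UMI was seen in 24.8% and 28.4% of neuron-like cells (thinned 16.1% and 14.8%), against 0.677% and 0.327% of sclerotome-like cells (thinned 0.473% and 0%). Likest to Isl1 were Rb1cc1 (r = 0.809), Frmpd1 (0.757) and Prmt2 (0.751).

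Of the second heart field and pharyngeal genes listed near Isl1, 19 were counted over the whole library and none passed the call. Among all genes 9.66% passed it over the whole library. In cluster 14, 10 were counted. There Hes1, a Notch target, rose (37.6 and 84.8 CPM, a ratio of 2.26, 1.41 to 3.77), Bmp4 fell (101 and 62.9 CPM, a ratio of 0.624, 0.435 to 0.899) and 13.5% of all genes in this cluster passed the call. Tbx1, a pharyngeal factor, had 138 and 165 CPM and Fgf10, a growth factor of the second heart field, 265 and 295 CPM in cluster 14. The genes of the list with the most UMIs were Eya1, with 248 and 279 CPM over the whole library, and Nrp2, with 227 and 219 CPM, and Ldb1, a LIM domain partner of Isl1, had the largest difference, with 54.3 and 81.4 CPM, short of the call. In neuron-like cells only 5 genes of the neuronal and sensory list could be counted, and none passed. Tfap2b, one of them, had 165 and 117 CPM there. Over the whole library 3 of 18 rose (Lhx1, Ret and Pax8) and 2 fell (Neurod1, with 2.49 and 1.05 CPM, and Tfap2b, with 77.1 and 50.05 CPM), while Tfap2a had 32.7 and 34.3 CPM. Of the endothelial list, Sox18 had the largest difference over the whole library, with 0.460 and 1.35 CPM, and was the only one of 22 past the call.

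The identifiers of the genes and their coordinates in GRCm38, from GENCODE M21, are given last, as chromosome, start and end. They are ENSMUSG00000031162, X from 7959260 to 7978071 on the minus strand, for Gata1, ENSMUSG00000015053, 6 from 88193891 to 88207032 on the plus strand, for Gata2, ENSMUSG00000015619, 2 from 9857078 to 9890034 on the minus strand, for Gata3, and ENSMUSG00000021944, 14 from 63198922 to 63271692 on the minus strand, for Gata4. Gata5 is ENSMUSG00000015627, 2 from 180325133 to 180334699 on the minus strand, Hand1 ENSMUSG00000037335, 11 from 57828705 to 57832818 on the minus strand, and Hand2 ENSMUSG00000038193, 8 from 57320983 to 57324633 on the plus strand. Nkx2-5 is ENSMUSG00000015579, 17 from 26838664 to 26845009 on the minus strand, and Isl1 ENSMUSG00000042258, 13 from 116298281 to 116309689 on the minus strand. Gata6 is ENSMUSG00000005836, 18 from 11052064 to 11085635 on the plus strand.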

How the data were processed

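Embryos were dissociated and barcoded on the 10x Chromium with 3′ v3.1 chemistry, 1 library per genotype. The authors deposited raw UMI counts per gene and barcode. The file header and the study's methods name Cell Ranger 6.1.2, and the submitters' processing notes name 2.1.1 and mm10. No source used here states the annotation, the strand setting or the use of intronic reads in counting. Every deposited barcode held at least 500 UMIs.

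Cells with 200 to 6000 genes and under 30% mitochondrial UMIs were kept. Counts scaled to 10000 per cell were log-transformed before clustering, and 2000 variable genes were chosen with Scanpy 1.11.5, without the 10 factors, Xist, Tsix, mitochondrial, ribosomal and Y-linked genes. Differences between libraries in the first 30 components were removed with Harmony, rewritten in NumPy 2.4.6, and a shared-neighbour graph of 15 neighbours was partitioned with leidenalg 0.10.2 at resolution 1, the first of those nearest to 30 clusters. A cluster was named from marker lists when 1 list led with at least 3 raised markers (at least 10 UMIs, 2-fold), by a rule set after the clusters were seen. The names are rebuilt, and other names in the study can give other values. Scrublet called 1153 wild-type (7.61%) and 700 Usb1-null cells (5.38%) as doublets, and these were kept in the main values. Thinning to 800 UMIs left out 2689 wild-type and 304 Usb1-null shallower cells.

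UMIs were summed per library and cluster and given as CPM. Cells are not replicates, so nothing was tested, and with 1 sample per group no p-value was computed. Scripts were tested on simulated data. The named genes were the 10 factors, for each the 3 genes of highest Pearson r among genes with at least 100 UMIs, and from each of 7 lists the gene with the largest ratio and the 2 with the most UMIs. Other genes, the sclerotome-like comparison, the pairs of factors counted together and cluster 14 for the list near Isl1 were chosen after values were seen. Some genes that these rules name are not reported here. The members and the 173 genes of the lists were chosen with earlier results of these data known.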

Additional observations from a re-analysis of the deposited data

Results flagged for a closer look

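Gata4 differed between clusters in the direction of its Usb1-null over wild-type ratio. The ratio was 1.52 in the limb or body wall mesenchyme-like cluster, also 1.52 in the splanchnic mesoderm-like cluster 7 and 2.43 in the unnamed cluster 8, each with a counting interval above 1. It was 0.705 in endoderm-like cells and 0.830 in the splanchnic mesoderm-like cluster 20, each with an interval below 1. The interval also lay above 1 in some clusters with too few Gata4 UMIs for a call. These were forebrain-like cells (4.72, 1.65 to 18.6), surface ectoderm-like cells (3.49, 1.45 to 10.2) and the unnamed cluster 11 (2.51, 1.18 to 5.93). In another such cluster, primitive erythroid-like cells, it lay below 1 (0.367, 0.109 to 0.981). The mean Gata4 level of the 2 libraries was 6.99 CPM in forebrain-like and 7.505 CPM in surface ectoderm-like cells. These levels are near those read as background in sclerotome-like and spinal cord-like cells, so no conclusion is drawn from their ratios. There was 1 library per genotype, so the difference in direction between clusters was not tested.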

How the results depend on the processing

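No paired analysis was possible because there was 1 library per genotype, and for the same reason no replicate could be left out. Of the 10 whole-library values under 8 alternatives, 77 moved on the log2 scale by no more than the distance from the middle to the end of their counting interval, 2 moved further and 1 reversed. Within leading clusters the same was so for 103, and 7 moved further. The reversed value was Gata1 over the whole library, 0.12 (log2) with at least 1000 genes per cell.

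The count of factors past 1.5-fold over the whole library, 1 of 10, was 0 of 9 with thinned cells. It was 0 of 10 with wild-type cluster shares, with 5 CPM added and at 2-fold, and 2 of 10 with 0.1 CPM added. The count in leading clusters, 1 of 8, was 2 of 8 with at least 1000 genes and 4 of 8 without doublets. It was 3 of 10 with at least 10 UMIs, 0 of 4 with thinned cells, 0 of 3 with at least 200 UMIs and 0 of 8 at 2-fold. The count of pairs, 4 of 36, was 7 of 33 with at least 1000 genes and 8 of 35 without doublets. It was 7 of 36 with 0.1 CPM added and with 4000 variable genes, and 33 of 96 with at least 10 UMIs. With thinned cells it was 2 of 17, with at least 200 UMIs 2 of 14, and at 2-fold 1 of 36. The share of all genes past the call under each of these settings is not given here for these counts. The count of list genes, 46 of 161 where 9.66% of all genes passed, was 27 of 161 with 5 CPM added and 20 of 161 at 2-fold. Alternatives for the lists within clusters were chosen after seeing the data. The erythroid count of 7 of 23 was 11 of 20 with at least 1000 genes, where 30.2% of all genes passed. The cardiac count of 14 of 30 was 8 of 23 with thinned cells, where 16.2% of all genes passed. The causes were not tested, apart from the fewer UMIs left by thinning and by a higher minimum.

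The leading cluster of Gata4, Gata5 and Gata6 became the cardiomyocyte-like one with 19 clusters aimed at and without library correction, where cluster 20 was merged into a larger one. With another seed and with 4000 variable genes, Gata5 led in the cardiomyocyte-like cluster and Hand1 in the one matching cluster 20. Hand2 led in the one matching cluster 20 when the factors were kept in the clustering. Gata2 led in the endothelial-like one with 4000 variable genes. Gata1, Gata3, Nkx2-5 and Isl1 kept their leading cluster in all 5 other clusterings. Depth limits Nkx2-5 (57 and 48 UMIs) and Gata2 (67 and 132 UMIs) most.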
